A study of Mus musculus with 26 samples.

Results

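The structural genes of the sperm tail were examined in testis of wildtype mice and of mice with a conditional knockout of Tex10. The 10 genes are Akap3, Akap4, Fsip2 and Cabyr of the fibrous sheath, Odf1 and Odf2 of the outer dense fibres, Smcp of the mitochondrial capsule, and the tektins Tekt1, Tekt2 and Tekt4. They were chosen by name as flagellum and fibrous sheath genes, by a rule that uses no measured value but was written with earlier results of these data known, and all 10 of them are among the 21275 genes of the testis table. RNA-seq was available from 2 wildtype and 2 Tex10 conditional knockout (cKO) testes of strain C57BL/6N, all untreated. The driver of the deletion, the allele, the age of the mice and whether wildtype mice carried a Cre are not given in the sources used here. The labels number the testes 1 and 2 in each group but do not say that they came from separate animals, so p-values measure only the spread between these libraries. The other 22 of the 26 libraries of the series come from cultured cells, namely EpiLCs, which resemble epiblast, and the PGCLCs derived from them, which resemble primordial germ cells, all of strain 129Sv/J. One table of 10 libraries holds untreated EpiLCs and PGCLCs of days 2 and 4 that were given DMSO or dTAG13 (500 nM), a degrader of tagged proteins used by the submitters to deplete Tex10; the tagged allele is not given in the sources used here. The other table covers 2 clones that overexpress Tex10 and 1 control line with an empty vector, in 12 libraries, as EpiLCs and as PGCLCs of days 2, 4 and 6. These cells build no tail, and they are used here for the levels of the tail genes.

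The sperm tail is a motile cilium, a microtubule axoneme driven by dynein arms, to which spermatids add accessory structures. Outer dense fibres run along the microtubule doublets, mitochondria wrap the midpiece, and the fibrous sheath encloses the axoneme of the principal piece and anchors signalling and glycolytic enzymes. Transcription of many of the genes for these parts belongs to the haploid phase of spermatogenesis, and many of their mRNAs are stored in spermatids until they are translated.

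Every one of the 10 tail genes was lower in cKO testis. Their levels, in CPM over a library size scaled by TMM (trimmed mean of M values), came to 54.5% to 72.6% of the wildtype mean. In each gene both cKO libraries lay below both wildtype libraries, as they did in 31.5% of the 20658 genes tested. All 10 passed limma's test at an adjusted p under 0.05, against 13.1% of all genes tested that were called lower. The median log2 fold change of the 10 was -0.68, against 0.01 over all genes tested. The sum of the 10 genes was 12346 and 12826 in the wildtype libraries and 7908 and 7946 in the cKO libraries. Fold changes here and below are differences of log2(value + 1) between cKO and wildtype, and limma's p-values were adjusted (Benjamini-Hochberg) across the 20658 genes.

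**Figure D1:**
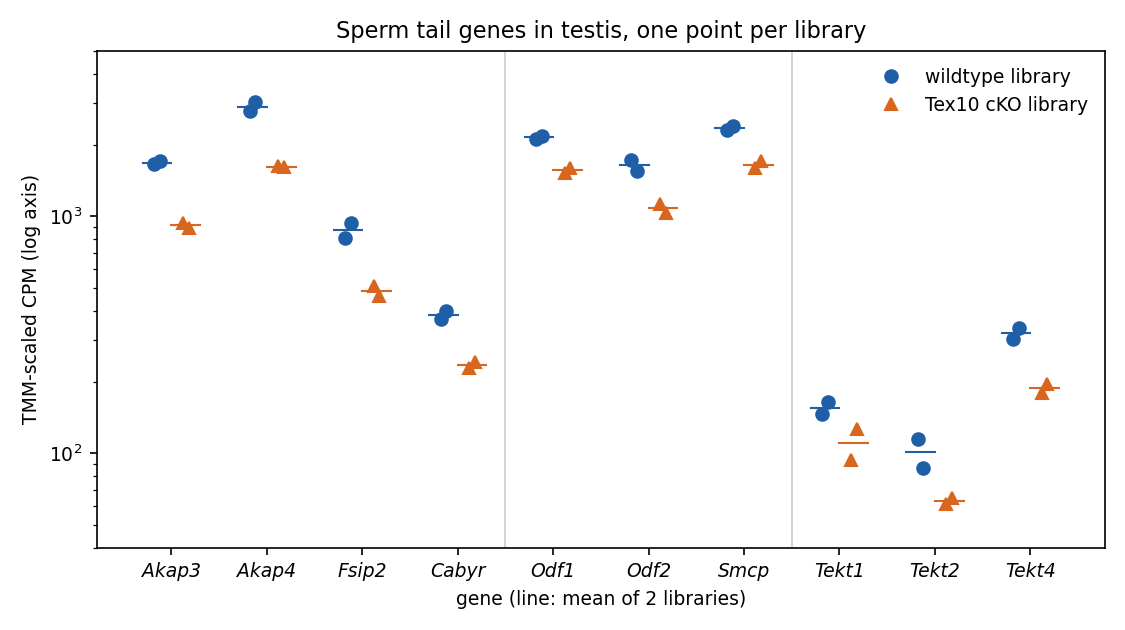
TMM-scaled CPM (log axis) of the 10 tail genes in each of the 4 testis libraries, with circles for wildtype, triangles for Tex10 cKO and lines at the mean of 2 libraries; vertical lines separate fibrous sheath, dense fibre and capsule genes, and tektins. In each gene the 2 cKO libraries lie below the 2 wildtype libraries, with the narrowest gap in Tekt1 (147 against 127).

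The libraries held between 6058987 and 7272313 reads, and 3 reads, taken as the floor of detection for counting error, were worth 0.381 to 0.514 units. Tex10, read as the check of the labels, was at 79.1 and 44.1 in wildtype and at 29.8 and 27.3 in cKO libraries (log2 fold change -1.02, standard error 0.214, limma adjusted p 0.00318). Without wildtype replicate 1 it was -0.61, and without limma's variance trend the limma adjusted p was 0.0782, which missed the threshold of 0.05. Tex10 shares 226 exon bases with the antisense gene Invs. Which part of Tex10 was deleted is not given in the sources used here. Germ cell, Sertoli and Leydig markers were present in all 4 libraries. Markers of Sertoli and Leydig cells, somatic cells of the testis, rose in cKO, with all 8 Sertoli cell genes called higher (median log2 fold change 1.48) and all 7 Leydig cell genes (median 1.72), against 16.1% of all genes tested that were called higher. Without cKO replicate 1 the Leydig median was 0.97, and without limma's variance trend 2 of the 7 Leydig genes were called. The summed Sertoli markers were at 508 and 449 in wildtype and at 1527 and 1307 in cKO, and their part in the lower tail gene values was not tested. In whole testis, fewer spermatids and less tail RNA per spermatid cannot be told apart.

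The 4 fibrous sheath genes all fell, with log2 fold changes from -0.87 to -0.70. With quantile normalization Akap4 was at -0.68, and Akap3, Fsip2 and Cabyr were at -0.39, -0.38 and -0.35. Akap4 encodes the main scaffold of the sheath, which anchors protein kinase A, and lies on the X chromosome (ENSMUSG00000050089.13, chrX:7067519-7078609, GRCm38, plus strand). It was at 2777 and 3039 in wildtype libraries 1 and 2, and at 1629.9 and 1618 in cKO libraries 1 and 2. The groups were far apart, with means of 2908 ± 186 (SD, n = 2) in wildtype and 1624 ± 8.75 (SD, n = 2) in cKO. Its log2 fold change was -0.84 (standard error 0.133, 95% interval -1.12 to -0.55, limma adjusted p 0.000574). Akap3, the sheath's other kinase anchor, lies at chr6:126853098-126874308 (ENSMUSG00000030344.11, plus strand). Its wildtype values were 1659 and 1708, and its cKO values 942 and 895. The means were 1684 ± 34.6 (SD, n = 2) and 918 ± 33.5 (SD, n = 2), and its log2 fold change was -0.87 (standard error 0.122, 95% interval -1.14 to -0.61, limma adjusted p 0.00027).

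The promoters of Akap3 and Akap4 are shown because both kinase anchor genes share a run of bases there. Whether the run bears on their levels was not tested. RefSeq promoter sequences (GRCm38.p6, 250 bases before to 50 after a transcription start) were available for 8 of the 10 genes, with 15 start sites. Printed are the 150 bases before the start, 5′ to 3′ on the gene's strand, chr6:126852948-126853097 for Akap3 and chrX:7067365-7067514 for Akap4. Capitals mark 2 runs of letters, CTATAGAAAC and TGATGTCA.
Akap3: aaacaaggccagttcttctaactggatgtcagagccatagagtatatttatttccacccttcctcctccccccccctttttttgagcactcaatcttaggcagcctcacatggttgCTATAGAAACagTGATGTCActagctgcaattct
Akap4: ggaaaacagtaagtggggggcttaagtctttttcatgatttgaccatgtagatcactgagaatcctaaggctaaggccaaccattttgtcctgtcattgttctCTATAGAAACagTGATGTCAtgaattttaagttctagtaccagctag
The capitals and the 2 bases between them form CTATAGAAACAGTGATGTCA, a run of 20 bases that begins 34 bases before the start in Akap3 and 47 bases before it in Akap4. It was picked as the longest run that both promoters share, so they hold it by selection and its rarity is not a test. Of the 32851 promoters in the table these 2 alone held the run on either strand. TGATGTCA is a variant of TGACGTCA, the octamer bound by CREM and related factors, and occurred on either strand in 3.62% of all promoters. Among the 10 genes it was found in Akap3, Akap4 and Smcp, in Smcp after the start. A second copy in Akap3 begins at the last base before the start. The full octamer TGACGTCA was in 1.79% of all promoters and in no promoter of these genes. These motifs were searched after the promoter sequences had been seen, and a match is a description of letters, not of a binding site.

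With the main settings the other sheath genes fell by similar amounts. Fsip2 encodes a very large protein that interacts with the sheath (ENSMUSG00000075249.12, chr2:82943634-83008937, plus strand). Levels of 814 and 941 in wildtype stood against 511 and 462 in cKO. The log2 fold change was -0.85 (standard error 0.124, 95% interval -1.11 to -0.58, limma adjusted p 0.000353). Cabyr, a calcium-binding sheath protein that is phosphorylated on tyrosine during capacitation, lies at chr18:12740322-12755260 (ENSMUSG00000024430.14, plus strand). It was measured at 369 and 401 in wildtype and at 229 and 243 in cKO. Both cKO libraries were low, and its log2 fold change was -0.70 (standard error 0.115, 95% interval -0.95 to -0.46, limma adjusted p 0.000697).

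The genes of the dense fibres and the mitochondrial capsule fell less far in point estimate, a difference that was not tested. The 95% intervals of Odf2 (-0.88 to -0.33) and of the sheath gene Cabyr (-0.95 to -0.46) overlapped. Odf1, a main protein of the outer dense fibres, lies at chr15:38219203-38226735 (ENSMUSG00000061923.4, plus strand). Its wildtype values of 2121 and 2189.9 exceeded cKO values of 1532 and 1597. The groups did not overlap, and the log2 fold change was -0.46 (standard error 0.128, 95% interval -0.74 to -0.19, limma adjusted p 0.0154). Smcp encodes the cysteine-rich protein of the mitochondrial capsule (ENSMUSG00000074435.10, chr3:92583867-92588997, minus strand). It stood at 2305 and 2398 in wildtype, compared with 1603 and 1707 in cKO. The groups did not overlap, with a log2 fold change of -0.51 (standard error 0.13, 95% interval -0.79 to -0.23, limma adjusted p 0.0103).

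Odf2 encodes a dense fibre protein that is also a component of centrioles in cells without a tail (ENSMUSG00000026790.19, chr2:29889221-29931746, plus strand). Testis values were 1734 and 1557 in wildtype and 1124 and 1037 in cKO. Again both cKO libraries were lower, with a log2 fold change of -0.61 (standard error 0.128, 95% interval -0.88 to -0.33, limma adjusted p 0.00337). In the mean log2 value of the 4 sheath genes minus that of Odf1, Odf2 and Smcp, wildtype libraries were at -0.91 and -0.77 and cKO libraries at -1.11 and -1.15. The sheath genes were thus lower relative to the fibre and capsule genes in both cKO libraries, a comparison made after the values had been seen and without a test.

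Tektins are filament proteins that associate with the doublet microtubules of cilia and flagella. Tekt4 (ENSMUSG00000024175.2, chr17:25454615-25476602, plus strand) was at 303 and 340.0 in wildtype and at 181 and 196 in cKO. Both cKO libraries were low, with a log2 fold change of -0.77 (standard error 0.118, 95% interval -1.02 to -0.52, limma adjusted p 0.000475). Tekt2 (ENSMUSG00000028845.15, chr4:126322121-126325688, minus strand) had wildtype values of 115 and 86.8 and cKO values of 61.3 and 64.7. The wildtype mean was 101 ± 20.1 (SD, n = 2), the groups did not overlap, and the log2 fold change was -0.66 (standard error 0.147, 95% interval -0.97 to -0.34, limma adjusted p 0.00462). Without wildtype replicate 1 the value was -0.46. Tekt2 shares 396 of its 1900 exon bases with the antisense transcript Gm12945, itself at 19.9 to 32.5 in the 4 libraries, and without a stated strand setting the reads of both cannot be told apart.

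Tekt1 (ENSMUSG00000020799.16, chr11:72344722-72362442, minus strand) was the least uniform of the 10 genes within cKO. Its cKO libraries were at 94.2 and 127 and its wildtype libraries at 147 and 165. The log2 fold change was -0.51 (standard error 0.145, 95% interval -0.82 to -0.20, limma adjusted p 0.0176). Without cKO replicate 1, the lower library, it was -0.30 (limma adjusted p 0.279).

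The promoters of Tekt2 and Tekt4 are shown because each holds an inverted repeat just before its start. Windows are the 150 bases before the RefSeq start, chr4:126325689-126325838 on the minus strand for Tekt2 and chr17:25471440-25471589 on the plus strand for Tekt4, which precedes the start of the shorter transcripts. Capitals mark GTTGCNNNGCAAC, found as the inverted repeat of 5-base arms, 3 bases apart, that both genes share.
Tekt2: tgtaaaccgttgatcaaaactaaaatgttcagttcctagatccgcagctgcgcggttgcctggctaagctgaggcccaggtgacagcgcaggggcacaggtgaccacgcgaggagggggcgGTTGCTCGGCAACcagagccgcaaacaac
Tekt4: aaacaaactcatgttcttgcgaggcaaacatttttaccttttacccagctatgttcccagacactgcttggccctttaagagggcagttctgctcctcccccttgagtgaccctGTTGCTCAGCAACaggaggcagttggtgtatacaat
The repeat resembles the X-box that RFX factors recognise, which are regulators of ciliary genes. It begins 29 bases before the start shown in Tekt2 (71 before another RefSeq start of that gene) and 36 bases before it in Tekt4, and it occurred in 0.225% of the 32851 promoters. The repeat was picked because both promoters hold it, so this share is not a test. No other of the 8 genes with a promoter sequence held these letters, which says nothing about RFX factors at those genes.

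How firmly these falls are called depended on 2 choices and, where a library was left out, on the pair that remained. Such a fit, here and elsewhere, has 1 library in a group and takes its spread from the other group's pair alone. Calls lost there do not measure how far the falls rest on the library left out. The median log2 fold change of the 10 was -0.66 without cKO replicate 1 and -0.73 without cKO replicate 2. Without cKO replicate 1, 6 of the 10 genes were called and 3148 genes in all, against 6016 with every library. Odf1 (limma adjusted p 0.282), Odf2 (0.0519), Smcp (0.256) and Tekt1 (0.279) then missed the threshold. Without cKO replicate 2, Odf1 (limma adjusted p 0.177), Odf2 (0.0995) and Smcp (0.132) did, and 7 genes were called. Without the mean-variance trend Akap3, Akap4 and Fsip2 alone remained, and the limma adjusted p of the others was between 0.0512 and 0.152. Quantile normalization moved the median log2 fold change of the 10 from -0.68 to -0.37 and left 6 called, with Odf1 at -0.07, Odf2 at -0.13, Smcp at -0.17 and Tekt1 at -0.31. The share of all genes tested that were called lower was 7.31% without cKO replicate 1, 9.49% without cKO replicate 2, 2.3% without the trend and 11.1% with quantile normalization, against 13.1% with every library and the main settings. All 130 values of these genes under 13 alternatives were negative.

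**Figure D2:**
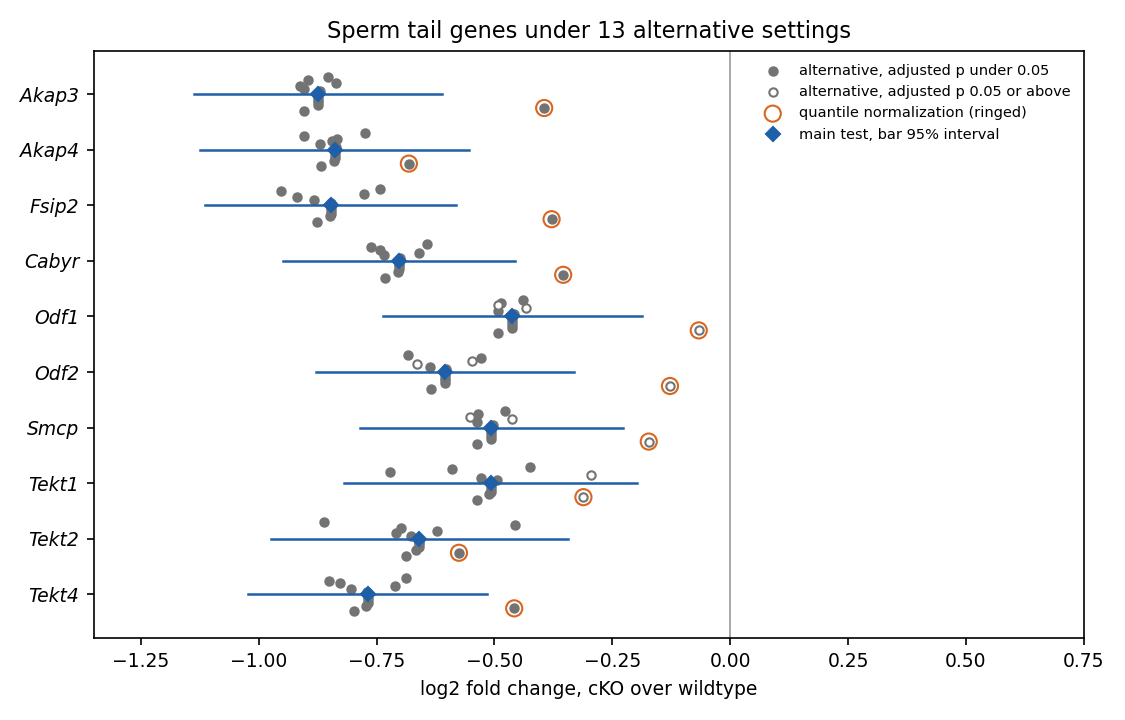
Log2 fold change of each tail gene, cKO over wildtype. Diamonds are the main test with its 95% interval, small circles the 13 alternatives (filled where the adjusted p was under 0.05, open otherwise), and rings mark quantile normalization. Every point lies below 0, and the ringed points lie nearest to 0 in all genes except Tekt1 and Tekt2, where leaving out a library gave the value nearest to 0.

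Per kilobase of exon (GENCODE M21, union of exons), the 10 genes covered a wide range of levels in wildtype testis. Smcp was at 2525 and 2626 per kilobase, followed by Odf1 at 1920 and 1982, Akap4 at 917 and 1004 and Akap3 at 526 and 542. Odf2, Tekt4 and Cabyr came next with overlapping values, 157 and 175, 152 and 170, and 147 and 160 per kilobase, so their order is not resolved. Tekt1 at 90.7 and 102, Tekt2 at 45.7 and 60.6 and Fsip2 at 38.5 and 44.5 were lowest. In cKO the highest genes were again Smcp with a mean of 1813 per kilobase, Odf1 with 1416 and Akap4 with 536. The annotation the authors counted on is not given in the sources used here, and the union of 25 transcripts of Odf2 makes its exon length an upper estimate.

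Other genes of the tail were read from lists fixed by role. Of 16 partners of sheath, fibres and annulus, 12 were called lower and 4 did not pass the test, with a median log2 fold change of -0.64. That count and those of the other tail lists are to be read against 13.1% of all genes tested. Among 4401 genes with a testis mean of at least 50 the share was 37.4%. It was 72.4% among the 714 of these that were under 1 in cultured cells, a background described further on. Not every gene of the tail lists was under 1 in cultured cells or had a testis mean of at least 50. Fsip1, another sheath-interacting gene, went from 29.4 and 29.8 in wildtype to 15.3 and 14.6 in cKO (log2 fold change -0.94, limma adjusted p 0.00185). Fscb, which encodes a sheath protein that binds Cabyr, went from 849 and 879 to 452 and 487 (-0.88, limma adjusted p 0.00019). Closest to 0 among the called genes were Gpx4 (-0.45, limma adjusted p 0.0313), a selenoprotein of the mitochondrial capsule, and Spa17 (-0.43, limma adjusted p 0.0288). Without wildtype replicate 1 they were at -0.27 (limma adjusted p 0.183) and -0.26 (limma adjusted p 0.172), and both calls were also lost without cKO replicate 2. The axoneme list of dynein arms, radial spokes, central pair and associated proteins had 16 of 22 genes called lower and a median of -0.49. Lowest in the list were Cfap43 (-0.98, limma adjusted p 0.000324) and Cfap44 (-0.92, limma adjusted p 0.00127), which encode partner proteins of the axoneme. Spag6l of the central pair (-0.35, limma adjusted p 0.0333) and Ccdc39 (-0.33, limma adjusted p 0.0446) were the called genes closest to 0, and both calls were lost without either cKO library or wildtype replicate 2. Cfap43 was at 275 and 378 in wildtype and at 161 and 164 in cKO.

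Ion channels, pumps and energy enzymes of the tail had 11 of 15 genes called lower, with a median of -0.61. Adcy10, the soluble adenylyl cyclase that starts cyclic AMP signalling in sperm, was at 153 and 176 in wildtype and at 72.6 and 70.8 in cKO. Its log2 fold change was -1.18 (limma adjusted p 5.72e-05). Atp1a4, a sodium pump subunit of sperm, had a log2 fold change of -1.02 (limma adjusted p 8.85e-05). Closest to 0 among the called genes were Catsperd (-0.41, limma adjusted p 0.0279) and Catsper2 (-0.38, limma adjusted p 0.0238), both of the sperm calcium channel, and both calls were lost without either cKO library or wildtype replicate 2. Without cKO replicate 1, 6 genes of this list and 9 of the axoneme list were called, and without cKO replicate 2, 7 genes of this list.

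Of the assembly and transport genes 5 of 15 were called lower and 10 did not pass. Their median was -0.28, and -0.47 without wildtype replicate 2. Qrich2, needed for tail formation, had a log2 fold change of -1.02 (limma adjusted p 0.000376), with 1248 and 1727 in wildtype and 764 and 682 in cKO. Rimbp3, a protein of the manchette that shapes the spermatid head, had a log2 fold change of -0.82 (limma adjusted p 0.000897). Ttc21a (-0.62, limma adjusted p 0.0027) and Hook1 (-0.46, limma adjusted p 0.0123) were the called genes closest to 0, and the call of Hook1 was lost without cKO replicate 2. Ift20 alone in this list had a positive value (0.36, limma adjusted p 0.0929) and was singled out after its values were seen. Among 8 transcription regulators of spermatids 4 were called lower, led by Fhl5, a coactivator of CREM (-0.63, limma adjusted p 0.00721), and Sox30 (-0.62, limma adjusted p 0.00373). The other 2 were the ciliary regulators Foxj1 (-0.56, limma adjusted p 0.00336) and Rfx2 (-0.46, limma adjusted p 0.0123). The call of Fhl5 was lost without wildtype replicate 2 (limma adjusted p 0.0592) and that of Rfx2 without cKO replicate 1 (limma adjusted p 0.18). Crem, singled out after its values were seen because of the octamer, had -0.27 (limma adjusted p 0.128) and did not pass.

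The tail genes were then set beside markers of the germ cell stages. All 8 round spermatid markers were called lower (median -0.60), and 5 of 6 elongating spermatid markers (median -0.57), the exception being Prm2 (-0.42, limma adjusted p 0.051). The same shares apply as for the tail lists. They are 13.1% of all genes tested, 37.4% of the 4401 genes with a testis mean of at least 50, and 72.4% of the 714 of these under 1 in cultured cells. The spermatocyte list had a median of 0.14, with 2 of 8 genes called higher and 6 not passing, and 4 of 7 spermatogonial markers were called higher (median 0.62), against 16.1% of all genes tested. Without cKO replicate 1, 5 round and 2 elongating spermatid markers were called, and leaving out either cKO library left 2 spermatogonial calls and no spermatocyte call (2 and 1 at an unadjusted p under 0.05 without cKO replicates 1 and 2; 2 called by edgeR and 0 by DESeq2 over all libraries). With quantile normalization 4 round and 1 elongating spermatid markers were called, against 11.1% of all genes tested that were called lower in that setting. Without the variance trend limma called 0 markers of either spermatid list, with 5 round and 5 elongating ones at an unadjusted p under 0.05, while edgeR called 8 and 6 and DESeq2 7 and 4. In mean log2 value, the 10 tail genes stood 3.43 and 3.49 above the spermatocyte markers in wildtype and 2.68 and 2.50 above them in cKO. Against round spermatid markers the same difference was 2.02 and 1.97 in wildtype and 1.89 and 1.93 in cKO. Against elongating spermatid markers it was -1.13 and -1.30 in wildtype and -1.29 and -1.33 in cKO. Relative to spermatocyte markers both cKO libraries were lower than both wildtype libraries, by 0.87 on average (cKO minus wildtype -0.87). The average differences were -0.09 against round and -0.10 against elongating spermatid markers, where the groups did not overlap for the round list and overlapped for the elongating list. As a ratio of sums to the spermatocyte markers, wildtype libraries were at 3.67 and 3.32 and cKO libraries at 2.80 and 2.35, which did not overlap. The summed spermatocyte markers in cKO were 0.86 of those in wildtype, while the median log2 fold change of the list was 0.14. As a ratio of sums to the round spermatid markers, wildtype libraries were at 5.87 and 5.19 and cKO libraries at 5.54 and 5.60, which overlapped. As a ratio of sums to the elongating spermatid markers, wildtype libraries were at 0.693 and 0.634 and cKO libraries at 0.608 and 0.587, which did not overlap. None of these differences was tested.

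**Figure D3:**
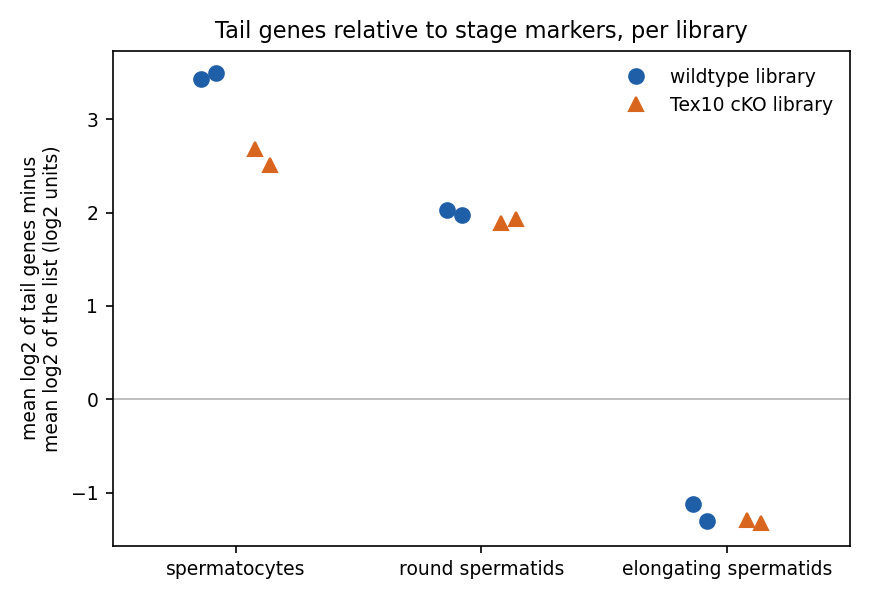
Mean log2 value of the 10 tail genes minus the mean log2 value of each stage marker list (log2 units), 1 point per testis library, with circles for wildtype and triangles for Tex10 cKO. The 2 groups stand apart against spermatocyte markers (3.43 and 3.49 against 2.68 and 2.50) and lie close together against round spermatid markers (2.02 and 1.97 against 1.89 and 1.93).

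**Figure D4:**
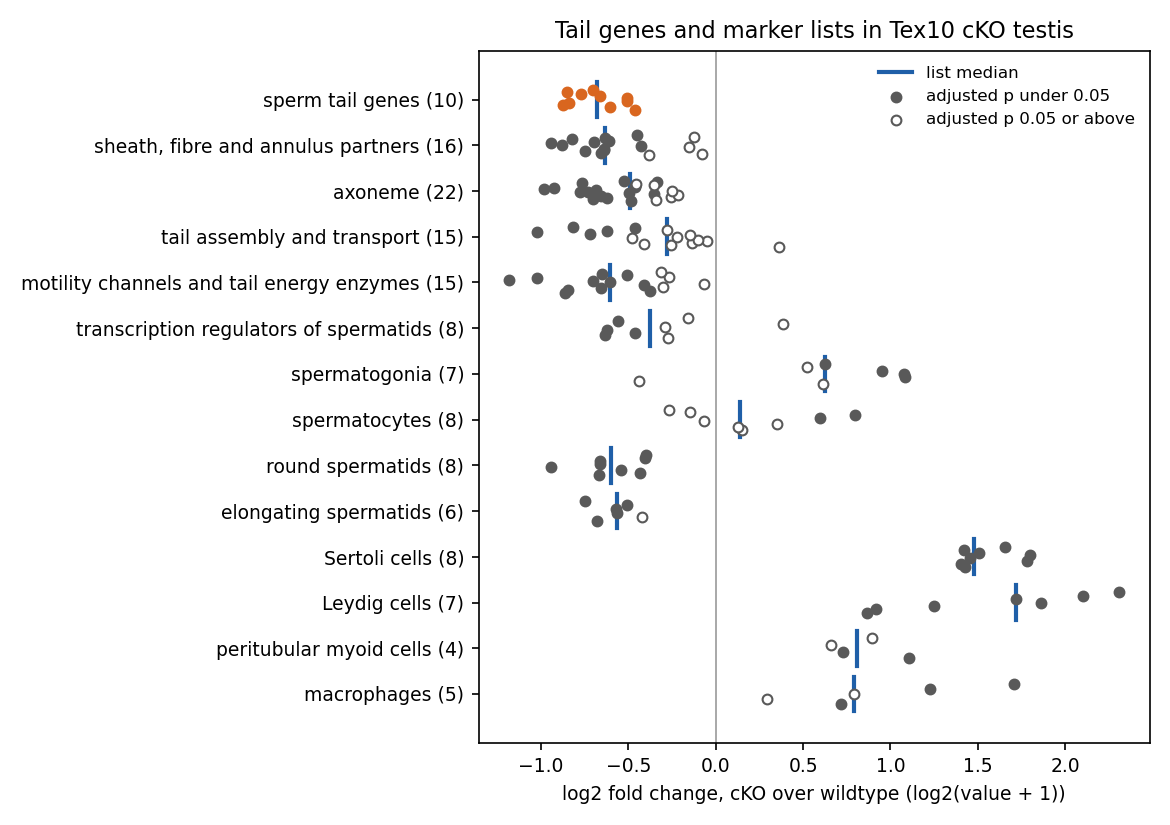
Log2 fold change, cKO over wildtype, of each tested gene of the tail lists and of the cell type marker lists, with the number of tested genes in brackets. Filled points passed limma's test at an adjusted p under 0.05, open points did not, and the vertical bar is the list median. The 10 tail genes (median -0.68) lie in the range of the spermatid lists, and Sertoli (median 1.48) and Leydig (median 1.72) genes lie to the right.

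A wider background was counted because the 10 genes are abundant in testis and most were near 0 in the cultured cells. Of 4401 genes with a testis mean of at least 50, 37.4% were called lower. Of the 714 among them whose mean was under 1 in both tables of cultured cells, 72.4% were called lower, with a median of -0.54. Of the 10 tail genes, 8 belong to the genes under 1 in both tables, and their count is to be read against that share. Other cell types of the testis were checked as well. Peritubular myoid markers had 2 of 4 genes called higher and macrophage markers 3 of 5 tested, against 16.1% of all genes tested. Without limma's variance trend 1 gene of each of these 2 lists was called. Endothelial markers had 1 called in each direction of 4, and neither of 2 blood markers passed. The myoid count was 1 without cKO replicate 1 or wildtype replicate 2 and 3 without wildtype replicate 1, and at most 1 endothelial marker was called when any 1 library was left out. Of 3 markers of multiciliated duct cells, Mcidas is not in the table and Ccno, at 4.45 to 10.8, did not pass. Deup1 was called lower, from 141 and 147 in wildtype to 90.0 and 93.0 in cKO, against 13.1% of all genes tested. With Mcidas absent and Ccno this low, Deup1 was not read as a measure of duct cells. Of 6 epididymal markers the table holds Rnase10 alone, which was at 16.6 and 11.3 in wildtype and at 5.57 and 8.01 in cKO and was called lower, a call lost without cKO replicate 1 or wildtype replicate 1.

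In cultured cells 8 of the tail genes had a mean under 1, Tekt1 was low but detected in most libraries, and Odf2 was abundant. Akap4 was listed at 0 in 20 of the 22 libraries of both tables and reached 0.293, Odf1 at 0 in 21 with a highest value of 0.163, and Smcp at 0 in 21 with a highest value of 0.311. Tekt4 and Fsip2 reached at most 0.88 and 0.597. The highest values of Akap3, Cabyr and Tekt2 were 1.13, 1.69 and 2.07. Tekt1 had medians of 1.98 in the dTAG13 table and 1.82 in the overexpression table, reached 2.91, and was at 1 or more in 8 of 10 and 9 of 12 libraries.

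Odf2 was present in every cultured library. It ranged from 142 to 201 in the dTAG13 table (median 175, n = 10) and from 229.8 to 294 in the overexpression table (median 249, n = 12). The tables were scaled separately, so these levels are set beside those of testis without a test. At day 2, Odf2 was at 153 and 157 with DMSO and at 196 and 199 with dTAG13, and at day 4 at 163 and 201 with DMSO and at 187 and 196 with dTAG13. The authors' deposited table gives log2 fold changes of 0.35 at day 2 (FDR 0.603) and 0.07 at day 4 (FDR 1) for dTAG13 against DMSO.

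**Figure D5:**
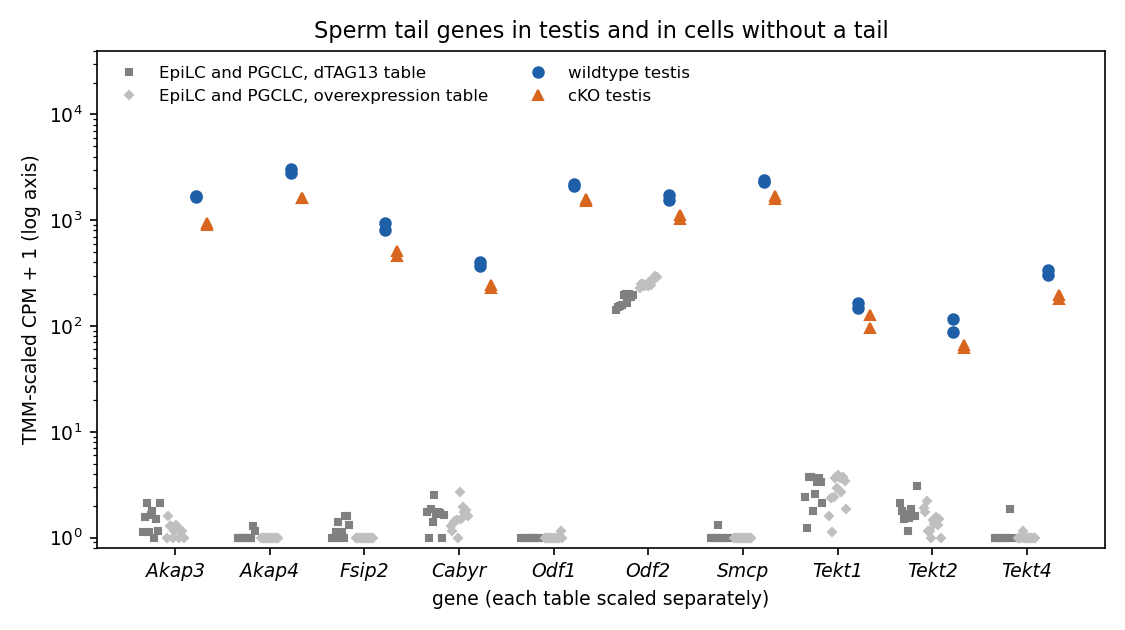
TMM-scaled CPM plus 1 (log axis) of the 10 tail genes in every library, with squares for the 10 libraries of the dTAG13 table, small diamonds for the 12 of the overexpression table, circles for wildtype testis and triangles for cKO testis. Odf2 alone stands far above 1 in cultured cells (142 to 294); each table was scaled separately.

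The authors' deposited table for testis gives the same 10 genes an FDR under 0.05. In that table the FDR ranged from 9.81e-07 for Tekt4 to 0.0283 for Odf1, and the log2 fold changes from -0.87 for Akap3 to -0.46 for Odf1. The authors' deposited table has 6526 genes under an FDR of 0.05 in all, 2892 of them lower in cKO.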

How the data were processed

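RNA-seq of whole testis was compared between 2 wildtype and 2 Tex10 cKO libraries, made with a NuGEN Ovation kit per the labels' protocols. The submitters' processing notes name Bowtie2 2.3.4.3, SAMtools 1.9, HTSeq 0.11.2, edgeR 3.26.8 and build mm10. Annotation, strand setting and filter are not given in the sources used here. The deposited values are a signal scaled by the authors. Each equals whole reads (within 0.05 reads for 100% of values) times a step per library, read here as TMM-scaled CPM. Every gene in the testis table exceeded 0.5 in at least 2 libraries. The authors' p-values and FDR were deposited beside log2 fold changes, and their test is not stated.

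Here limma 3.58.1 in R 4.3.3 (variance trend) was run on log2(value + 1) for genes with a mean of at least 1, adjusted by Benjamini-Hochberg over 20658 genes. A fold change on this scale understates low genes. Members and lists were chosen with earlier results of these data known. Named were the 10 genes, Tex10, and per list of tail genes the 2 called genes with the lowest and the 2 with the highest log2 fold change at a mean of at least 5; markers were described by list, apart from Prm2, Ccno, Deup1 and Rnase10. These and Ift20, Crem, Dnah8, Kif3a and Iqcg fall outside the rule and were singled out after their values were seen. edgeR 4.0.16, DESeq2 1.42.0, other scalings, filters and pseudocounts were alternatives. The test was also run on simulated data in which few genes changed, evenly in both directions. That run does not check the choice of scaling or of variance trend for these libraries. Of the table's symbols, 21145 matched GENCODE M21 names. Floors cover counting error only. Libraries of a group differed by more than counting error (chi-square per gene 4.86 to 7.31).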

Additional observations from a re-analysis of the deposited data

How the results depend on the processing

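Of 130 values (10 tail genes under 13 alternatives) 112 kept their call, 18 missed the threshold and none reversed. Without the variance trend 2135 genes were called in all and 3 of the 10 tail genes. In the other lists 3 sheath partners, 1 axoneme gene, 1 assembly gene, 4 channel and enzyme genes and 0 of the regulators were then called by limma, 4 regulators having an unadjusted p under 0.05 and 4 being called by edgeR and 4 by DESeq2. Quantile normalization left 6 tail genes (median -0.366), 7 axoneme genes and 1 regulator. Leaving out each library in turn gave 3148 to 6085 genes in all, 6 to 10 tail genes with a median from -0.732 to -0.662, 9 to 16 axoneme genes, 6 to 11 channel and enzyme genes and a spermatocyte median from -0.012 to 0.254. The endothelial median turned to -0.893 with a filter at a mean of 5, which leaves fewer genes. The causes of the other changes were not tested.

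edgeR on recovered reads called 5904 genes and all 10 tail genes, DESeq2 4351 and all 10. Nothing states that equal numbers pair the testes, and the deviations of same-numbered libraries correlated at 0.116 over 2 pairs. With the replicate block 7185 genes and all 10 tail genes were called, the highest limma adjusted p among the 10 being 0.00147. The tail genes lay far above the floor of 3 reads, and 2 libraries a group limit the precision.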

Other observations

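Tail genes of the 4 other lists were also divided by their level in cultured cells, after the values had been seen. Of 29 genes with a mean under 1 in both tables of EpiLCs and PGCLCs, 19 were called lower in cKO testis, with a median log2 fold change of -0.63. Among the 714 genes with a testis mean of at least 50 and under 1 in both tables, 72.4% were called lower, with a median of -0.54. Genes of the 4 lists were not held to that testis mean, here or below, so the sets are not matched. Of 5 genes at 10 or more in both tables (Gpx4, Dnah8, Kif3a, Iqcg and Hook1), 3 were called lower, with a median of -0.45. The 34 genes in between had 22 called lower and a median of -0.44. For these the shares called lower are 13.1% of all genes tested and 37.4% of the 4401 genes with a testis mean of at least 50. Odf2, the only one of the 10 structural genes at 10 or more in both tables, fell by 0.61 on the log2 scale.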
